A study of Mus musculus with 2 samples.

Results

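Among double-negative 1 (DN1) cells of the mouse embryonic thymus, 62 of 5187 barcodes that passed filters (1.20%) held progenitor regulators together with transcripts of Zbtb16, Rora or Icos, genes best known from innate lymphoid cells (ILCs). These innate-gene progenitors were chosen by their counts of unique molecular identifiers (UMIs). A barcode needed a level of at least 350 CPM (UMIs of a gene scaled to a barcode total of 1000000) summed over Spi1, Bcl11a, Lyl1, Mef2c and Cd34, under 400 CPM of Cd3g, fewer than 3 UMIs of Gata2, Ms4a2 and Fcer1a together, fewer than 3 UMIs of Mpo, and 2 or more UMIs summed over Zbtb16, Rora and Icos. The first 4 of these criteria left 378 gated barcodes, of which 62 (16.4%, 95% interval 12.8 to 20.5%) were members, 82 held a sum of 1 and 234 held a sum of 0. The 234 served as the contrast.

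The cells came from embryonic thymus of 5x polychromILC mice, a strain that carries reporters at several lineage loci, and were sorted by flow cytometry as DN1. There was 1 library of E15.5_DN1 and 1 of E19.5_DN1, made with 10x 3' chemistry after a lysis step that the labels describe as giving nuclei. The deposited table pooled them under barcode suffixes 1 and 2, and which stage a suffix holds is not stated in the labels, so values are given within each suffix and no comparison of stages was made. With 1 library per stage and no replicates, no difference was tested. Intervals are at 95%, and those of levels, shares and ratios cover counting error only.

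T cell progenitors that reach the thymus keep stem and progenitor regulators such as Spi1 (PU.1), Bcl11a and Lyl1 while Notch signals raise Tcf7 and Gata3, and Bcl11b then closes other fates. ILC precursors use much of the same machinery, Tcf7, Gata3 and the receptor Il7r, but add Id2, which blocks E proteins, and pass through a stage marked by Zbtb16 (PLZF). Rora is required for group 2 ILCs (ILC2), and Icos is a costimulatory receptor abundant on them.

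Zbtb16 lies on chromosome 9 (48654297 to 48836222, minus strand), Rora on chromosome 9 (68653786 to 69388246, plus strand) and Icos on chromosome 1 (60977927 to 61000320, plus strand) of GRCm38. They did not contribute equally to the 62 barcodes. Zbtb16 had a UMI in 50 members, Icos in 31 and Rora in 16. Zbtb16 was the sole innate gene in 26 members, was joined by Icos alone in 14, by Rora alone in 4 and by both in 6. The remaining 12 members lacked Zbtb16, with Icos alone in 6, Rora and Icos in 5 and Rora alone in 1. The members' summed levels were 54.7 CPM for Zbtb16 (45.2 to 65.7), 44.4 CPM for Icos (35.9 to 54.3) and 16.5 CPM for Rora (11.5 to 23). Since the rule used these counts, they describe the members and are no result.

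**Figure D1:**
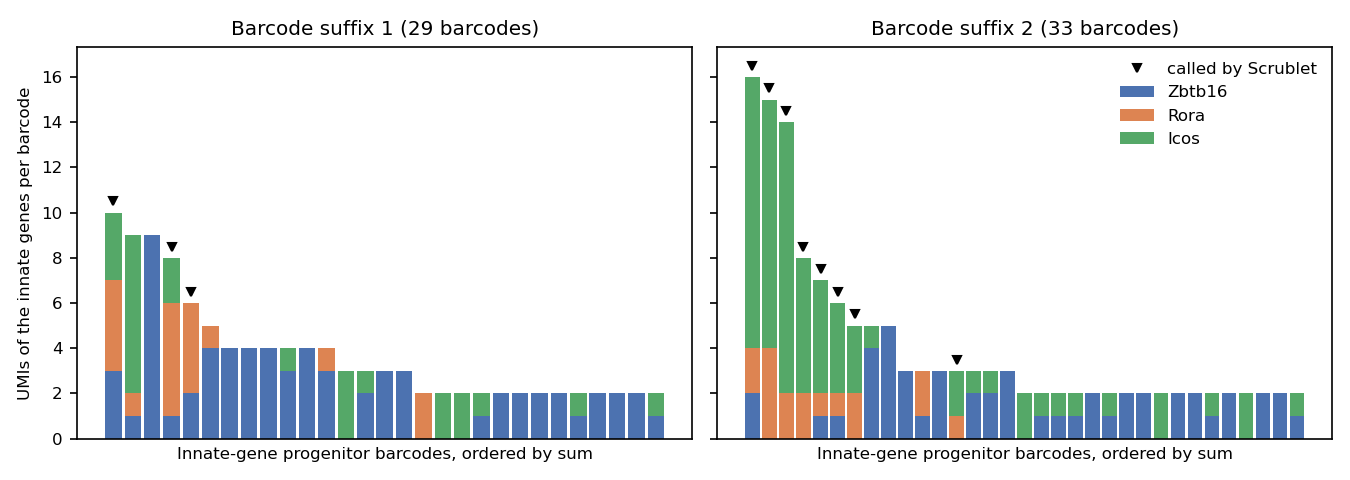
UMIs of Zbtb16, Rora and Icos in each of the 62 members, 29 of suffix 1 and 33 of suffix 2, ordered by their sum. Black triangles mark the 11 barcodes that Scrublet called as doublets, which hold the tallest Icos bars of suffix 2, while most short bars are Zbtb16.

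The proportions of the innate genes differed from those of mature innate cells in the same table. In all gated barcodes Zbtb16 gave 48.6% of the 327 innate UMIs. By suffix its share was 62.8% in suffix 1, where Icos gave 20.9%, and 36.9% in suffix 2, where Icos led with 50.3%. Members that Scrublet called as doublets held most of the 90 Icos UMIs of suffix 2 but few of its 66 Zbtb16 UMIs. Without those barcodes Zbtb16, not Icos, had the most innate UMIs in suffix 2. In an ILC2 reference of 1106 barcodes, chosen by summed Il1rl1, Il17rb and Il13, Zbtb16 gave 1.66% and Icos 76.8%. In an NK and ILC1 reference of 1584 barcodes, chosen by summed Ccl5, Klrd1 and Xcl1, Zbtb16 gave 22.1%. Both references were limited to barcodes under 350 CPM of the 5 progenitor genes, so their low levels of those genes were set by that choice. Zbtb16 itself stood at 16.7 CPM in gated barcodes (14.2 to 19.6), 14.8 CPM in the ILC2 reference, 31.5 CPM in the NK and ILC1 reference and 4.83 CPM in a mast cell reference of 56 barcodes. Its level in gated barcodes was therefore close to that of ILC2, while Rora (4.95 against 191 CPM) and Icos (12.7 against 682 CPM) were far lower.

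Detection of 2 or more innate UMIs depended on depth. Members had a median of 36448 UMIs (763 to 63502) and contrast barcodes 21232 (843 to 113167). When every barcode was thinned to 10000 UMIs, 5.81% of 310 gated barcodes (3.48 to 9.02%) held 2 or more innate UMIs. In the mast cell reference, used here as background although its median for the 5 progenitor genes was 355 CPM, the share was 10.7% of 56 before thinning, at a median of 7184 UMIs, and 15.8% of 19 after (3.38 to 39.6%). With 19 barcodes that interval is too wide to show whether the gated share exceeded the background. The median Scrublet doublet score of the mast cell reference was 0.086, against 0.029 in gated barcodes, and 20 of its 31 innate UMIs were Icos. The comparison therefore decides nothing, and carrying 2 innate UMIs is not read as expression barcode by barcode. Zbtb16 itself had a UMI in 3 of the 56 mast cell reference barcodes (5.36%), and in 0 of 19 after thinning.

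Values near the limits of the rule were graded. Of 29 barcodes just inside the progenitor limit, at 350 to 400 CPM, 11 held 2 or more innate UMIs, as did 10 of 30 just outside it, at 300 to 350 CPM. Of the 62 members, 30 held exactly 2 innate UMIs and 15 held 5 or more. Id2 stood at 18 CPM at an innate sum of 0, 19.8 at 1, 27.7 at 2 and 91.5 at 3 or more. Il7r, the receptor chain for interleukin 7, stood at 25.5, 42.4, 57.5 and 102 CPM over the same steps. Gzma, which encodes granzyme A, was at 94.8, 347, 556 and 559 CPM, so its step lay between 0 and 2. All 11 members that Scrublet called as doublets held a sum of 3 or more. No barcode with a sum of 1 or 2 was called, and the steps were not recomputed without the called barcodes.

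The progenitor genes of the rule were spread over the members. Spi1, the PU.1 gene, had a UMI in 56 of 62 members and Bcl11a in 57, and 58 members held at least 3 of the 5 gate genes. Their summed Spi1 level was 115 CPM against 137 in the contrast. Mef2c (87.3 against 165 CPM) and Cd34 (82.6 against 148 CPM) were lower in members than in the contrast. All of these genes belong to the gate and are given as a check of the label only.

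Among 9659 genes outside the rule with at least 20 UMIs over both groups, 203 (2.10%) were at least 2-fold higher in members and 213 (2.21%) at least 2-fold lower, around a median log2 ratio of 0.03. Among genes of at least 30 CPM with 1 direction in both suffixes, the 12 with the highest ratios were Gzma, Ckb, Ctsw, Skap1, Id2, Ccl5, Il7r, Fgf3, Thy1, the reporter tagBFP, Ets1 and Bcl2. Members and contrast were split on counts of the same cells, so these ratios describe the groups. Contrast barcodes drawn to match the members in depth gave 282 genes higher and 90 lower, so that 75.8% of the genes past 2-fold were higher, against 48.8% without matching.

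Several transcription factors of early ILC and T cell development had higher levels in members. Id2 stood at 63.2 CPM (53.0 to 74.9) in members and 18 CPM (14.6 to 22.1) in the contrast, a log2 ratio of 1.81 (1.42 to 2.21). Within suffix 1 it was 89.4 against 24.3 CPM, and within suffix 2 46.5 against 14.2 CPM. Of the 134 Id2 UMIs in members, 113 were in barcodes with Rora or Icos. The ratio was lower with the barcodes called as doublets removed. Single barcodes overlapped widely, as 33 of 62 members had no Id2 UMI while 53 of 234 contrast barcodes had one.

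Gata3, a factor shared by T cells and ILC2, stood at 70.3 CPM (59.5 to 82.6) in members and 30.1 CPM (25.6 to 35.2) in the contrast, a log2 ratio of 1.22. It had a UMI in 47 of 62 members and 85 of 234 contrast barcodes, and the median barcode was at 53.8 against 0 CPM. Suffix 1 gave 84.6 against 41.0 CPM and suffix 2 61.2 against 23.5 CPM. Thinned to 10000 UMIs, Gata3 was detected in 44.1% of members (31.2 to 57.6%) and 22.3% of contrast barcodes (16.5 to 29.0%). In the mast cell reference it was detected in 2 of 19 barcodes (10.5%, 1.30 to 33.1%), an interval that overlapped those of both groups.

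Bcl11b, the gene of T cell commitment that ILC2 also express, was at 36.8 against 13.8 CPM, a log2 ratio of 1.41 (0.93 to 1.90). It was detected in 22 of 62 members and 20 of 234 contrast barcodes, and after thinning in 22.0% against 5.43%, with 6.40% in the NK and ILC1 reference. Ets1, a factor of NK cell and T cell development, was at 39.6 against 13.8 CPM, a log2 ratio of 1.52 that came to 0.71 with the barcodes called as doublets removed. Thinned, Ets1 was detected in 20.3% of members (11 to 32.8%) and 13% of contrast barcodes (8.54 to 18.8%). In the mast cell reference it was detected in 6 of 19 barcodes (31.6%, 12.6 to 56.6%). Tcf7, the TCF-1 gene, was abundant in both groups, at 282 CPM in members and 189 in the contrast, a log2 ratio of 0.58 (0.43 to 0.73). Tcf7 exceeded its level in the ILC2 reference, 44.2 CPM, in both groups, while Tox (73.2 against 53.9 CPM) and Runx3 (145 against 112 CPM) differed less.

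**Figure D2:**
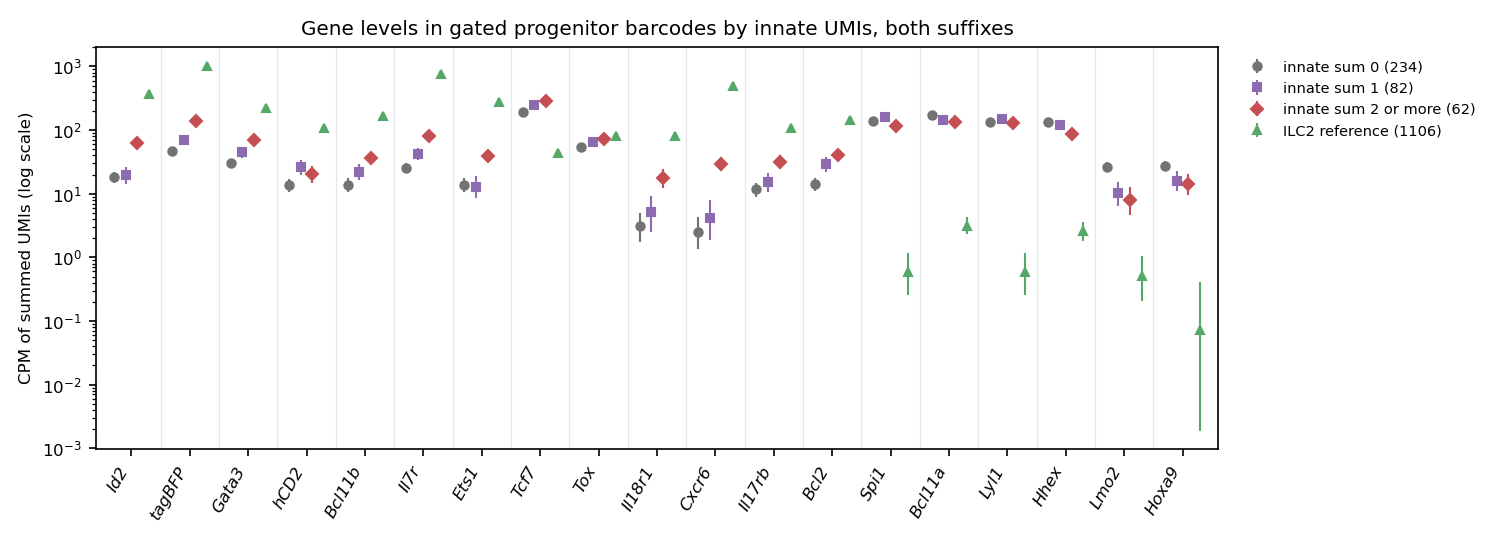
Summed CPM (log axis) of selected genes in gated barcodes with an innate sum of 0, 1, and 2 or more, and in the ILC2 reference, with exact Poisson intervals as bars. Id2, Gata3 and Il7r stood higher in members than in the contrast and below the ILC2 reference, and Spi1, Bcl11a, Lyl1 and Hhex stood above that reference, which was limited to low levels of the first 3.

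Levels of receptor genes varied between suffixes and with the doublet calls. Il7r, also needed by T cell progenitors, was at 82.1 CPM (70.4 to 95.3) against 25.5 CPM (21.4 to 30.3), a log2 ratio of 1.69 (1.35 to 2.02), with a UMI in 40 of 62 members and 69 of 234 contrast barcodes. The difference lay mostly in suffix 2, at 113 against 26.3 CPM, while suffix 1 gave 33.8 against 24.3 CPM. Il17rb, a subunit of the interleukin 25 receptor, was at 31.6 against 11.7 CPM, a log2 ratio of 1.43, and was found in 33 of 62 members and 48 of 234 contrast barcodes. Il18r1, the interleukin 18 receptor, was at 17.5 against 3.07 CPM and the chemokine receptor Cxcr6 at 29.7 against 2.50 CPM. Cxcr6 came from 16 members, with 15 of its 63 UMIs in 1 barcode, and after thinning it had a UMI in 0 of 26 members with Zbtb16 alone. Il1rl1, the interleukin 33 receptor of ILC2, was at 15.1 against 6.14 CPM, and its 32 UMIs in members were all in barcodes called as doublets. The median of 15 homing receptor genes was 0.31, and -0.01 over 14 genes without those barcodes.

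Effector genes ranged from widely detected to rare. Gzma was at 558 CPM in members (527 to 591) and 94.8 CPM in the contrast (86.6 to 104), a log2 ratio of 2.56, with a UMI in 34 of 62 members. One barcode held 372 of its 1182 UMIs. Suffix 1 gave 1240 against 216 CPM and suffix 2 121 against 20.7 CPM, so the levels differed between suffixes by more than members differed from contrast. The chemokine gene Ccl5 (50.5 against 15.2 CPM) had 35 of its 107 UMIs in 1 barcode. Il13, a type 2 cytokine gene, was at 13.2 against 0.576 CPM from 9 members, and Il5, the other main type 2 cytokine gene, had 0 UMIs in both groups. The NK cell genes Eomes and Klrb1c had 0 UMIs in members.

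Fgf3, a fibroblast growth factor gene with no place in the mature ILC lists, was at 54.3 CPM in members (44.8 to 65.1) and 17.1 CPM in the contrast (13.7 to 21.0), a log2 ratio of 1.67 (1.26 to 2.08). It had a UMI in 28 of 62 members and 33 of 234 contrast barcodes, and no barcode held more than 13 of its 115 UMIs. Suffix 1 gave 60.4 against 23.3 CPM and suffix 2 50.3 against 13.3 CPM. In the ILC2 reference Fgf3 stood at 0.147 CPM. After thinning it was detected in 32.2% of members (20.6 to 45.6%), 11.4% of contrast barcodes (7.21 to 16.9%), 0.148% of the ILC2 reference, 3.72% of the NK and ILC1 reference and 4 of 19 barcodes of the mast cell reference (21.1%, 6.05 to 45.6%). The members' share was within the interval of the mast cell reference.

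**Figure D3:**
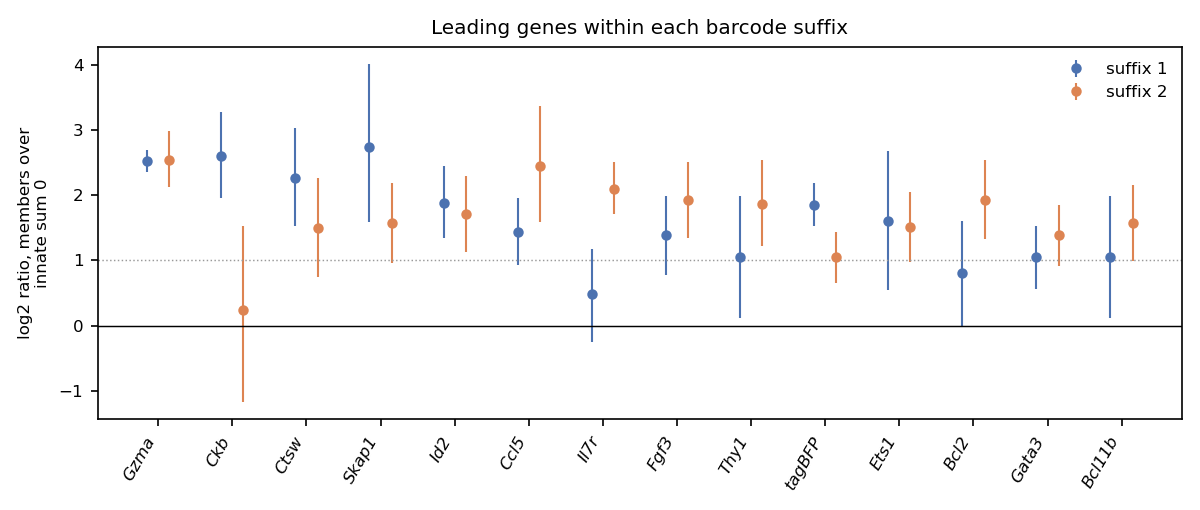
Log2 ratios of members over the contrast for the 12 leading genes, Gata3 and Bcl11b within each barcode suffix, with conditional exact intervals as bars and the 2-fold line dotted. The 12 leading genes were chosen for 1 direction in both suffixes, so their side of 0 is set by that choice. The suffixes stand furthest apart for Ckb and Il7r.

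The 21 ILC precursor genes outside the rule, all counted whatever their level, summed to 1685 CPM in members and 1019 CPM in the contrast, a log2 ratio of 0.73 (0.66 to 0.79). Of these, 16 reached 20 UMIs, and their median log2 ratio was 1.32 (0.53 to 1.81) against 0.03 over all genes tested. Among them 9 were at least 2-fold higher, against 2.10% of all genes tested: Il7r, Gata3, Id2, Ets1, Bcl11b, Cxcr6, Il18r1, Nfil3 and Arg1. The most abundant gene of the list, Itga4, the alpha-4 integrin, was at 560 against 368 CPM, a log2 ratio of 0.61. Ltb, which encodes lymphotoxin beta, was at 111 against 77.0 CPM. A gene that is high in 1 group passes the UMI minimum more easily, which favours ratios away from 0, so this count and median are a description only. Cxcr6 had 63 UMIs in members and 13 in the contrast, and Il18r1 had 37 and 16.

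Progenitor regulators outside the gate were on the other side. The summed gate genes were also lower in members, at a median of 502 CPM against 753 in the contrast. The part of that gap in the levels below was not tested. All 16 summed to 429 CPM in members and 570 CPM in the contrast, a log2 ratio of -0.41 (-0.52 to -0.30). The 13 that reached 20 UMIs had a median of -0.53 (-0.97 to -0.13), and 2 were at least 2-fold lower, against 2.21% of all genes tested. Those were Lmo2, a partner of Lyl1 in stem cells, at 8.02 against 26.5 CPM, and the growth factor receptor gene Flt3, at 6.61 against 14.2 CPM. Hhex, a homeobox regulator, was at 87.3 CPM (75.2 to 101) against 133 CPM (123 to 143), a log2 ratio of -0.61. Hoxa9 was at 14.2 against 27.6 CPM and Hoxa7 at 23.6 against 34.0 CPM. Kit, the stem cell factor receptor, differed little, at 87.8 against 96.0 CPM, as did Mycn, at 75.5 against 78.7 CPM.

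Notch genes were nearly level in both groups. Notch1 was at 131 against 142 CPM and its target Hes1 at 84.5 against 99.2 CPM, and 10 of 12 listed genes gave a median of 0.12 (-0.22 to 0.35), with 0 at least 2-fold away in either direction. T-lineage genes had a median of 1.12 over 16 genes (0.12 to 1.85), but -0.04 over 9 genes within suffix 1 and 0.51 over 10 within suffix 2. Thy1, a surface marker of T cells and ILCs, was at 33.5 against 11.1 CPM and the recombinase gene Rag2 at 17.9 against 6.33 CPM, whereas the kinase gene Lck was at 165 against 156 CPM and Runx1 at 202 against 207 CPM. Il2ra, the CD25 gene that marks the next double-negative stage and also ILC2, was at 137 CPM (122 to 154) against 68.5 CPM (61.6 to 76.0), a log2 ratio of 1.0 (0.77 to 1.23). The Il2ra difference lay in suffix 2, at 173 against 69.6 CPM, while suffix 1 gave 79.7 against 66.8 CPM.

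Division genes differed little. All 22 G2/M genes were above 0 with a median of 0.34 (0.15 to 0.58), led in abundance by Hmgb2 (1535 against 1409 CPM), the topoisomerase gene Top2a (285 against 190 CPM), Ube2c (270 against 173 CPM) and Birc5 (206 against 186 CPM). The 20 S phase genes had a median of 0.22, but -0.06 within suffix 1 and -0.03 against contrast barcodes of matched depth, and Dut, a nucleotide pool enzyme gene, was at 656 against 595 CPM. Interferon-stimulated genes had a median of -0.62 over 17 genes (-1.02 to -0.15). Of their most abundant members, Bst2 was level at 293 against 292 CPM and Rtp4 was at 33.0 against 59.5 CPM. Heat shock genes, with Hsp90ab1 at 5218 CPM in both groups, had a median of 0.03.

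The genes lowest in members were led by the mast cell proteases Cma1, Mcpt4, Tpsb2 and Mcpt2. Cma1 had 1 UMI in members and 926 in the contrast, and without 9 contrast barcodes that held 10 or more protease UMIs it had 1 in each. The next was Car2, a carbonic anhydrase gene, at 20.8 CPM (15.1 to 27.9) in members and 75.8 CPM (68.5 to 83.7) in the contrast. Its levels within suffix 1 were 21.7 against 23.3 CPM, so the difference came from suffix 2, at 20.1 against 108 CPM. Ccnd1, the cyclin D1 gene, was at 23.1 against 43.6 CPM and Egfl7 at 56.6 against 103 CPM. Slco3a1 (13.2 against 31.7 CPM), Cox4i2 (19.4 against 40.5 CPM), Afap1l1 (16.5 against 34.0 CPM), Rgs10 (46.3 against 88.9 CPM) and Hist1h2bc (75.5 against 140 CPM) made up the rest of the 12.

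Doublet calls moved with the innate genes. Scrublet called 11 of 62 members (17.7%, 9.20 to 29.5%), 0 of 82 barcodes of sum 1 and 4 of 234 contrast barcodes (1.71%). By combination it called 0 of 26 members with Zbtb16 alone, 6 of 24 with Zbtb16 and another innate gene, and 5 of 12 without Zbtb16. All 11 called members held Rora, which had a UMI in 16 members, and no member without Rora was called. The caller marked 0.466% of suffix 1 and 2.76% of suffix 2, and 3 of its 10 calls in suffix 1 fell on members. The low share leaves its power in suffix 1 unknown. With the called barcodes removed, 163 genes were at least 2-fold higher (1.71%) and 301 lower (3.15%). Gata3 then had a log2 ratio of 1.12, Bcl11b 1.49, Il7r 1.29, Fgf3 1.95 and Gzma 2.85. Id2 came to 1.09, Ets1 to 0.71, Maf, a factor of ILC2 and gamma-delta T cells, to 0.01 from 0.99, Ltb to -0.31, and Il1rl1 to 0 UMIs in members, with at most 0.283 times the contrast level at the floor of 3 counts. The median of ILC precursor genes was 0.71 (0.31 to 1.49) and that of progenitor regulators -0.62.

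**Figure D4:**
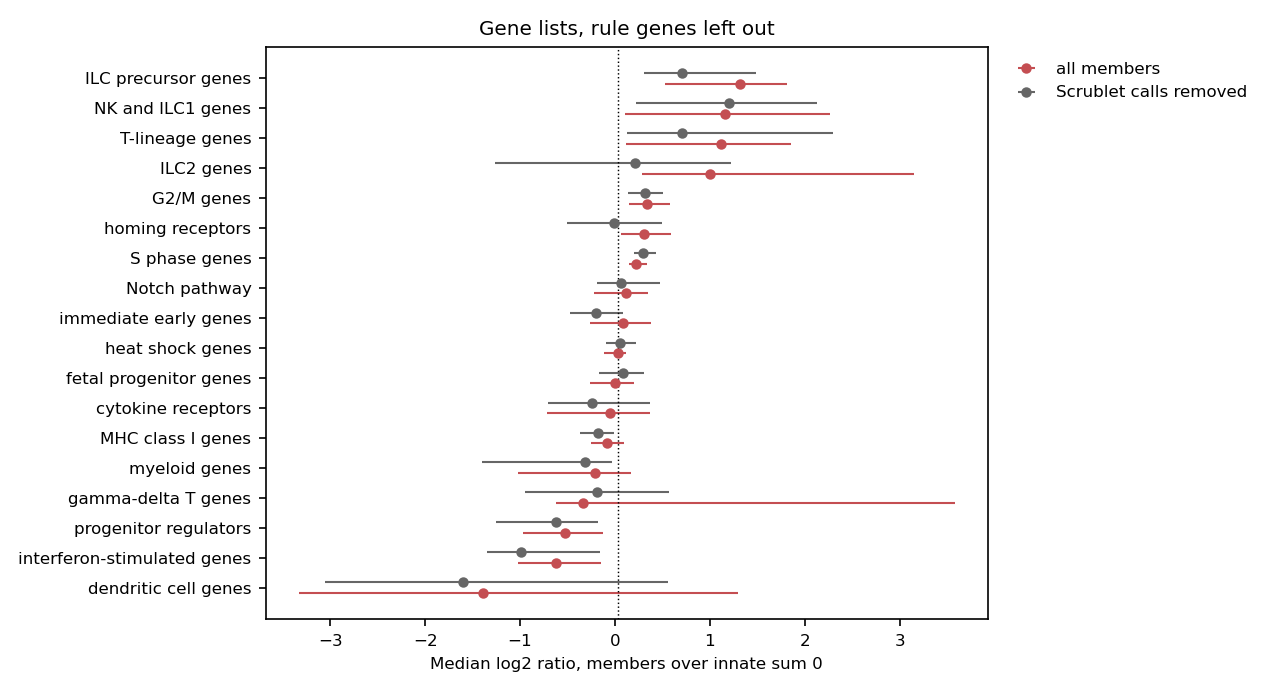
Median log2 ratio of members over the contrast for each gene list with 6 or more measured genes, with rule genes left out, for all 62 members (red) and with Scrublet calls removed (grey). Bars are 95% order-statistic intervals over the list's genes and the dotted line is the median over all genes tested. ILC precursor genes lie to the right of it and progenitor regulators to the left in both sets, while ILC2 genes move to 0.21 without the called barcodes.

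The members were split by which innate gene they carried, a split chosen after their values were seen. Of 7443 genes, 104 (1.40%) were at least 2-fold higher in the 26 barcodes with Zbtb16 alone than in the 36 with Rora or Icos, and 275 (3.69%) were at least 2-fold lower. Against the contrast, which both comparisons share, barcodes with Zbtb16 alone had 221 of 9374 genes at least 2-fold higher (2.36%) and 500 lower (5.33%), and those with Rora or Icos 248 of 9472 higher (2.62%) and 305 lower (3.22%). Id2 was at 23.1 CPM (14.3 to 35.4) with Zbtb16 alone, 90.4 CPM with Zbtb16 and another, 102 CPM without Zbtb16 and 18 CPM in the contrast. The Id2 level with Zbtb16 alone was therefore within the counting error of the contrast. Gata3, in comparison, was close in all 3 sets of members, at 66.1, 74.8 and 69.8 CPM, against 30.1 CPM in the contrast. The Gata3 value without Zbtb16 rested on 22 UMIs in 7 of 12 barcodes (43.7 to 106 CPM). Scrublet called 5 of those 12.

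Barcodes with Zbtb16 alone had higher levels of Tcf7, Fgf3, Dtx1 and Gzma, genes named after their values were seen. Tcf7 was found in all 26, at 344 CPM (307 to 384) against 236 CPM (210 to 265) with Rora or Icos, a log2 ratio of 0.54 (0.31 to 0.78). Fgf3 was at 82.7 CPM (65.0 to 104) against 33.0 CPM (23.6 to 45). Without Zbtb16 it was at 6.34 CPM from 2 UMIs (0.768 to 22.9), an interval that held the level of the contrast. Dtx1, a Notch target, was at 36.4 against 8.25 CPM. Gzma was at 1046 CPM against 192 CPM, was found in 21 of the 26, and its median barcode stood at 198 CPM. These 26 included the barcode with the most Gzma UMIs of all members and 1 with 197 UMIs, so few barcodes gave much of the summed level. Gzma levels also differed between suffixes by more than members differed from contrast. Prss2 and Pgam2, also among the leading genes, rested mostly on single barcodes, since 78 of 104 UMIs of Prss2 and 25 of 31 UMIs of Pgam2 came from 1 barcode each. Lmo2 and Il1rl1 had 0 UMIs with Zbtb16 alone. T-lineage genes as a list differed little, with a median of 0.28 over 11 genes (-0.90 to 0.57), and Bcl11b ran the other way, at 27.6 against 43.7 CPM.

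Barcodes with Rora or Icos had higher levels of another set of genes, also named after their values were seen. Cxcr6 was at 50.4 CPM (38.5 to 64.7) against 2.20 CPM with Zbtb16 alone, the calcium-binding gene S100a4 at 154 against 32.0 CPM, Maf at 47.9 against 11 CPM and Ets1 at 55.3 against 18.7 CPM. Il1rl1 was at 26.4 CPM, from 9 of the 36 barcodes, and Il13 at 22.3 CPM, from 8. The ILC2 list had a median log2 ratio of Zbtb16 alone over Rora or Icos of -1.73 over 8 genes (-4.34 to 0.84), and of -0.05 over 4 genes without the called barcodes. Klrd1, an NK cell receptor gene, was at 40.4 CPM but 23 of its 49 UMIs were in 1 barcode. With the 11 called barcodes removed, the log2 ratio of Zbtb16 alone over Rora or Icos went from -2.01 to -1.07 for Id2, from -4.51 to -3.34 for Cxcr6, from -2.27 to -1.38 for S100a4, from -1.56 to -0.48 for Ets1 and from -2.70 to 0.09 for Furin, which encodes a protein convertase. Levels intermediate between a progenitor and an ILC cannot be told apart here from 2 cells under 1 barcode.

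**Figure D5:**
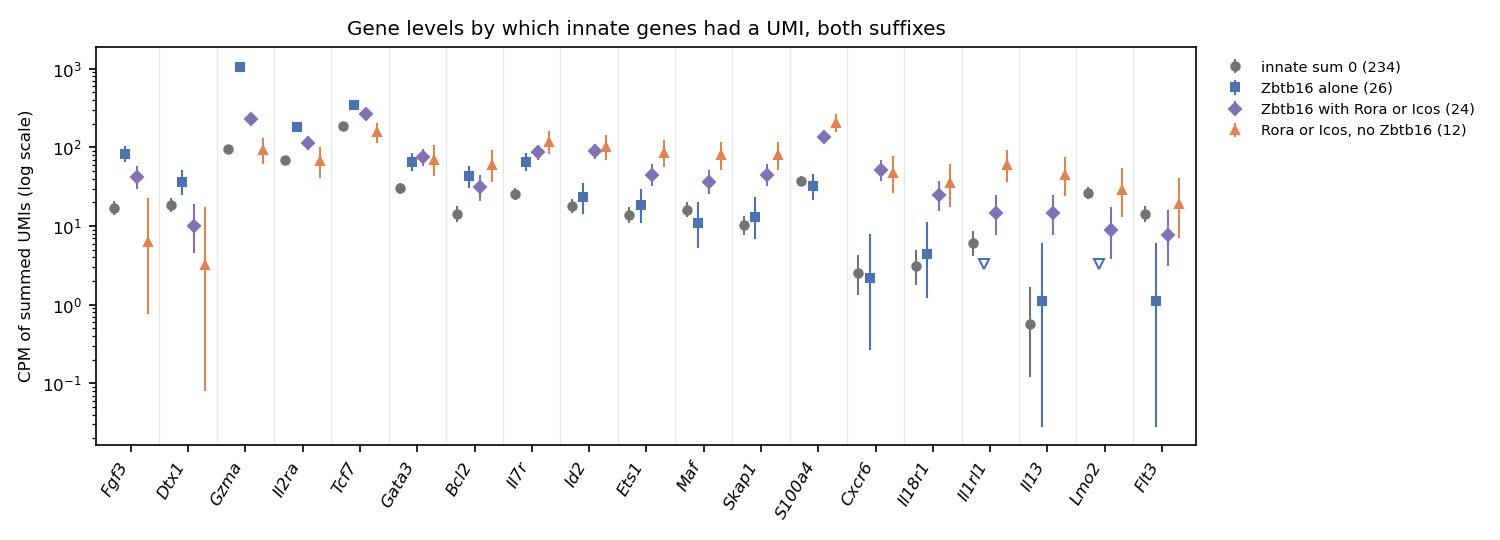
Summed CPM (log axis) in the contrast and in members with Zbtb16 alone, with Zbtb16 and Rora or Icos, and with Rora or Icos without Zbtb16, with exact Poisson intervals as bars. Open triangles mark 0 UMIs and are drawn at the level of 3 counts. Fgf3 was highest with Zbtb16 alone, and Id2, Maf and Cxcr6 were low with Zbtb16 alone. Gata3 was close in the 3 sets of members, with a wide interval in the set without Zbtb16.

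Within single barcodes the shared T and ILC genes met the progenitor genes. Id2, Gata3 and Il7r were all detected in 15 of 62 members, 14 of which also held at least 3 of the 5 gate genes, and in 8 of 234 contrast barcodes. None of the 3 was detected in 3 members and 90 contrast barcodes. All 3 were found in 4 of 26 barcodes with Zbtb16 alone and 11 of 36 with Rora or Icos. In the ILC2 reference 828 of 1106 barcodes held all 3. Members were deeper than contrast barcodes, which raises joint detection. Scrublet called 11 members as doublets, all among the 36 with Rora or Icos, and joint detection was not counted without them. Joint detection in 1 cell cannot be told apart here from 2 cells under 1 barcode.

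The reporters followed their loci in part. tagBFP, the Id2 reporter, was at 138 CPM (122 to 155) in members and 47.6 CPM (41.9 to 53.9) in the contrast, a log2 ratio of 1.53, and gave 2.18 UMIs per Id2 UMI in members, 2.64 in the contrast and 2.76 in the ILC2 reference. hCD2, the Gata3 reporter, was at 20.3 CPM (14.7 to 27.3) against 13.6 CPM (10.6 to 17.2), with 0.289 UMIs per Gata3 UMI in members and 0.452 in the contrast. mTeal, the Rora reporter, had 13 UMIs in 9 members and 6 UMIs in 6 contrast barcodes, all of which lacked Rora by the rule. TdTomato, the Bcl11b reporter, had 4 UMIs in members and 3 in the contrast, too few to compare.

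Markers of other cell types were present in members at levels that differed by list. Myeloid genes, some of which progenitors also express, had a median summed level of 3136 CPM in members and 2762 in the contrast. Their median was 500 CPM in the ILC2 reference and 4151 CPM in the NK and ILC1 reference. Elane was at 0 in both members and contrast. Gamma-delta T genes had a median of 995 CPM in members and 1168 in the contrast. Mast and basophil genes were detected for 5 of 9 in members, with Ms4a2 and Fcer1a at 0, and their summed level reached 147 CPM in the highest member against 121885 CPM in the highest contrast barcode. B lineage genes summed to at most 295 CPM in members, with Ebf1 and Pax5 at 0, against 11758 CPM in the highest contrast barcode. Dendritic cell genes reached 1311 CPM against 48712 CPM, with Xcr1 at 0 in both groups. ILC2 genes ranged from 0 to 1657 CPM in members with a median of 236, against 0 to 3931 CPM with a median of 133 in the contrast. NK and ILC1 genes ranged from 100 to 11265 CPM in members with a median of 625, against 0 to 9156 CPM with a median of 395. Their part in the differences was not tested.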

How the data were processed

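The authors deposited 1 table of raw UMI counts, genes by barcodes. The submitters' processing notes name Cell Ranger 3.0.2, STAR and GRCm38, and how cells were called is not stated there. Of its columns, 0 were set aside as other samples. Gene positions came from the GENCODE annotation of GRCm38. T-cell receptor chain genes were left out, and 1 locus is not reported here.

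Of 6057 barcodes (2182 of suffix 1, 3875 of suffix 2), 5515 had at least 500 genes and at most 10% mitochondrial UMIs, and 5187 of these had at most 1 UMI of Krt8, Krt18 and Prss16. The suffixes shared 25 barcode sequences, 0 of them gated in both. The Mpo limit removed 700 of 1078 barcodes. Members had 2118828 UMIs in all, the contrast 5209924. UMIs were summed per group as CPM with exact Poisson intervals, ratios had conditional exact intervals, shares had Clopper-Pearson intervals and a count of 0 was set at 3 counts for ratios. Genes needed 20 UMIs over both groups. ILC2 and NK and ILC1 reference barcodes had at least 300 CPM of their summed markers and under 350 CPM of the 5 progenitor genes, with 219 ILC2 and 35 NK and ILC1 barcodes within 50 CPM of the first limit. Mast cell reference barcodes held at least 3 UMIs of Gata2, Ms4a2 and Fcer1a. All 3 references were chosen after the data were seen. Doublets were called with Scrublet per suffix in scanpy 1.11.5 and left in unless stated. The functions were tested on simulated data. Python 3.11.15, numpy 2.4.6, scipy 1.17.1 and matplotlib 3.10.9 were used.

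Members and lists were chosen with earlier results of these data known. Named genes were the rule genes, the reporters, the 12 highest and 12 lowest ratios among genes of at least 30 CPM with 1 direction in both suffixes, and the 4 most abundant genes of each list. Others were chosen after their values were seen. Alternatives covered the rule's limits, depth, doublets, suffixes and minimum counts, and 6 were added after seeing the data, on low depth, mast cell proteases, doublets with low depth, thinning to 10000 UMIs, and the split by innate gene.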

Additional observations from a re-analysis of the deposited data

Results flagged for a closer look

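Cd74, the invariant chain gene of antigen-presenting cells, went in opposite directions in the suffixes. Its log2 ratio of members over the contrast was 1.54 in suffix 1, at 20.5 against 7.08 CPM, and -5.07 in suffix 2, at 3.10 against 104 CPM. The difference between suffixes was not tested, and Cd74 had a UMI in 6 of 62 members and 14 of 234 contrast barcodes.

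The Mpo limit set aside 700 barcodes that met the other progenitor limits. Of these, 82 held 2 or more UMIs of Zbtb16, Rora and Icos (11.7%, 9.43 to 14.3%), at a median of 31561 UMIs. That share is within the interval of the mast cell reference, 10.7% of 56 (4.03 to 21.9%) at a median of 7184 UMIs. The reference is small and shallower, so the comparison cannot decide, and the share is not read as expression. In the 378 barcodes under the limit the share was 16.4% at a median of 24408 UMIs. Zbtb16 stood at 10.6 CPM in the barcodes above the Mpo limit and 16.7 CPM in those under it.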

How the results depend on the processing

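No paired analysis was possible because no column carried a stage or replicate number and no test was run. The cause of the changes below was not tested. The 62 members became 144 at an innate sum of 1 or more, 32 at 3 or more, 32 at a gate of 500 CPM, 36, 10 and 17 with 2 UMIs of Zbtb16, Rora or Icos required, 29 and 33 in suffixes 1 and 2, 26 with Zbtb16 alone and 36 with Rora or Icos. The 203 higher genes became 605 (Rora), 424 (Icos), 331 as means of barcode CPM, 477 with no minimum and 32 at a minimum of 100 UMIs. The 213 lower genes became 355 at a sum of 3, 347 at 500 CPM, 391 (Zbtb16), 646 (Rora), 540 (Icos), 90 with matched depth, 400 as means, 496 with no minimum, 28 at 100 UMIs and 500 with Zbtb16 alone. The progenitor regulator median turned to 0.13 (Rora) and 0.02 (Icos), and that of ILC precursor genes moved to 1.97 (Rora) and 0.48 (Zbtb16 alone). Other medians turned to -0.12 for ILC2 genes (Zbtb16 alone), -0.04 for T-lineage genes (suffix 1), -0.01, -0.10 and -0.30 for homing receptors (Scrublet calls removed, Zbtb16, Zbtb16 alone), and -0.19, -0.02, -0.10, -0.06 and -0.03 for S phase genes (500 CPM, Rora, Icos, suffix 1, matched depth). Single genes turned with Rora and Icos: Gzma to -3.87 and -0.71, Fgf3 to -1.40 and -2.19, Gzmb to -1.37 and -2.16, and Bcl11b to -0.51 with Rora. Most of the 10 members of the Rora setting and most of the 17 of the Icos setting were called as doublets by Scrublet. Afap1l1 turned to 0.05 thinned to 3055 UMIs, and Cd74 to 1.54 in suffix 1 and 1.15 with matched depth. Over 122 other results, 2199 of 2981 values stayed, 762 moved and 20 turned.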

Other observations

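The E-protein and Id genes beyond Id2 were mixed. Id1, an inhibitor of E proteins, was at 21.2 CPM in members and 9.21 in the contrast, a log2 ratio of 1.20 (0.59 to 1.82), with no difference within suffix 1 (0.00) and 2.24 within suffix 2. The E protein gene Tcf12 was at 69.4 against 48.0 CPM, while Tcf3 (82.1 against 98.3 CPM) and Tcf4 (49.6 against 56.6 CPM) were lower.

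Itgae, the CD103 integrin gene, was at 17.5 CPM in members and 1.15 CPM in the contrast, a log2 ratio of 3.92 (2.67 to 5.46), with 4.06 and 3.85 within the suffixes and 2.97 with Scrublet calls removed. Cd163l1, a scavenger receptor gene of gamma-delta T cells, was at 16 against 1.34 CPM, a log2 ratio of 3.58, and 15 of its 34 UMIs came from 1 barcode. Sox13, a factor of gamma-delta T cells, was at 11.3 against 14.4 CPM. Genes of the fetal programme were level, with Igf2bp3 at 89.7 against 78.3 CPM and Lin28b at 17.9 against 19.8 CPM. Immediate early genes differed in sign, with Jun at 421 against 544 CPM and Junb at 155 against 91.6 CPM.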
